A study of Kluyveromyces lactis with 8 samples.

Results

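The genes described here are 6 genes of the milk yeast Kluyveromyces lactis whose namesakes in Saccharomyces cerevisiae act in a or alpha cells, out of 5076 genes with a deposited value. AGA2 (KLLA0E10891g), BAR1 (KLLA0D15917g), ASG7 (KLLA0A06578g) and STE23 (KLLA0E05105g) serve functions of a cells, and STE3 (KLLA0A06534g) and AFB1 (KLLA0F17182g) serve functions of alpha cells. They were picked by symbol, through the locus tags of a RefSeq gene table, with their levels in all 8 libraries already known. Their levels, differences and counts past a call rule are therefore given as a description, and no p-value of theirs supports a result.

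Haploid yeasts mate as a or alpha cells. In Saccharomyces cerevisiae each type secretes a peptide pheromone that binds a receptor on the other type, and surface agglutinins then hold the partners together. Which type-specific genes are on is set by the mating-type locus MAT, while the silent cassettes HML and HMR hold unexpressed copies of mating-type information. Sir2 is an NAD-dependent histone deacetylase, Sir4 a silencing protein, and Sum1 a DNA-binding repressor known in S. cerevisiae for holding sporulation genes off. The roles given below are those known from S. cerevisiae, and whether each gene is restricted to the same cell type in K. lactis was not assumed.

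RNA was sequenced from cells in early log phase, with 2 libraries from each of 4 strains. The strains were sir2∆ (LRY2850), sir4∆ (LRY3096), sum1∆ (LRY3098) and a wild type (WT, LRY2835) that carries SIR2. All 4 were MATa with both hmr and hml deleted, so the WT also lacks the silent cassettes. Cultures were started at an OD of 0.3 in YPD, a rich glucose medium, and harvested at an OD of 1 after growth at 30 °C. Each genotype was a single strain, and the submitters describe the pairs of libraries as technical replicates, so the spread between them does not cover independent cultures or clones.

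Values are FPKM, that is fragments scaled by gene length and by the size of the library, so levels can be compared between genes. For short genes such as AGA2 (273 bases) that comparison is rougher, because the scaling hinges on the fragment size. Depth, estimated from the steps between low values, lay between 9.95 and 25.9 M reads, with both sir4∆ libraries in the lower part of that range and both sum1∆ libraries in the upper part. The spread between replicate libraries exceeded that of counting alone (chi-square over its degrees of freedom of 4.54 in sum1∆ and up to 16.7 in WT). SUM1 had 0 FPKM in either sum1∆ library, against 31.2 and 28.04 FPKM in WT. KLLA0F14663g, a gene without a symbol chosen after seeing its values, stood at 0.0513 and 0 FPKM in sir2∆ and at 73.2 and 71.0 FPKM in WT. No gene combined values under 0.1 FPKM in both sir4∆ libraries with at least 10 FPKM in each of the remaining 6, so the sir4∆ label has no such check. KLLA0E16149g, picked out as the gene with the lowest log2 fold change of sir4∆ against WT, was listed at 0 in both sir4∆ libraries. It had 3.44 and 44.5 FPKM in WT, but at a length of 165 bases these rest on an estimated 1 and 7 reads. It is therefore no check of the sir4∆ label. HMLALPHA1 and HMLALPHA2, the alpha genes of the deleted HML cassette, were listed at 0 in all 8 libraries.

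The a-cell agglutinin and the alpha-factor protease were at far higher levels in sir2∆ and sum1∆ cells than in WT cells, and near the WT level in sir4∆ cells. AGA2 encodes the binding subunit of a-agglutinin, the surface protein with which an a cell adheres to an alpha cell. Its level was 218 and 262 FPKM in the sir2∆ libraries, 6.98 and 6.23 FPKM in sir4∆, 271 and 290 FPKM in sum1∆, and 4.98 and 5.75 FPKM in WT. Both libraries of sir2∆ and of sum1∆ were far above all 4 libraries of sir4∆ and WT. In bulk RNA, more cells expressing a gene and more of its RNA per cell cannot be told apart. The ratio of mean FPKM was 44.8 for sir2∆ over WT and 52.3 for sum1∆ over WT, with log2 fold changes on the log2(FPKM + 1) scale of 5.24 and 5.47 (SE 0.10 each). By mean level AGA2 stood above 82.0% of all genes in sir2∆ and 84.1% in sum1∆, against 3.72% in WT. Its short coding length of 273 bases gave few reads at the low levels: an estimated 5 and 5 reads in sir4∆, and 8 and 5 in WT. The 13 WT reads have an exact Poisson 95% interval of 6.92 to 22.2, and the 10 sir4∆ reads one of 4.80 to 18.4. Counting error of that size exceeds the gap between sir4∆ (mean 6.60 FPKM) and WT (mean 5.37 FPKM), so their order was not detectable at this depth. Such intervals cover counting error only.

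BAR1 encodes the secreted protease that degrades alpha factor and so lets a cells recover from it. BAR1 RNA measured 16.9 and 17.6 FPKM in sir2∆ cells, 0.481 and 0.286 FPKM in sir4∆, 21.7 and 23.2 FPKM in sum1∆, and 0.322 and 0.529 FPKM in WT. The sir4∆ and WT libraries overlapped, while the sir2∆ and sum1∆ libraries lay well above both. Even so BAR1 stayed among the weaker genes, above 9.48% of all genes in sir2∆ and 15.2% in sum1∆, against 1.22% in WT. The ratio of mean FPKM was 40.5 for sir2∆ over WT and 52.7 for sum1∆ over WT. On the log2(FPKM + 1) scale, which understates a change from so low a level, the fold changes were 3.68 and 4.04 (SE 0.13 each). The WT mean of 0.425 FPKM rests on 9 and 8 reads and the sir4∆ mean of 0.384 FPKM on 6 and 4 reads, against 242 and 540 reads in sir2∆ and 683 and 863 in sum1∆. BAR1 reached the minimum mean of 1 FPKM set for the fit through the sir2∆ and sum1∆ libraries alone. The other 5 genes passed that filter in each of the 8 libraries, with lowest values between 3.93 FPKM for ASG7 and 47.6 FPKM for STE23.

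**Figure D1:**
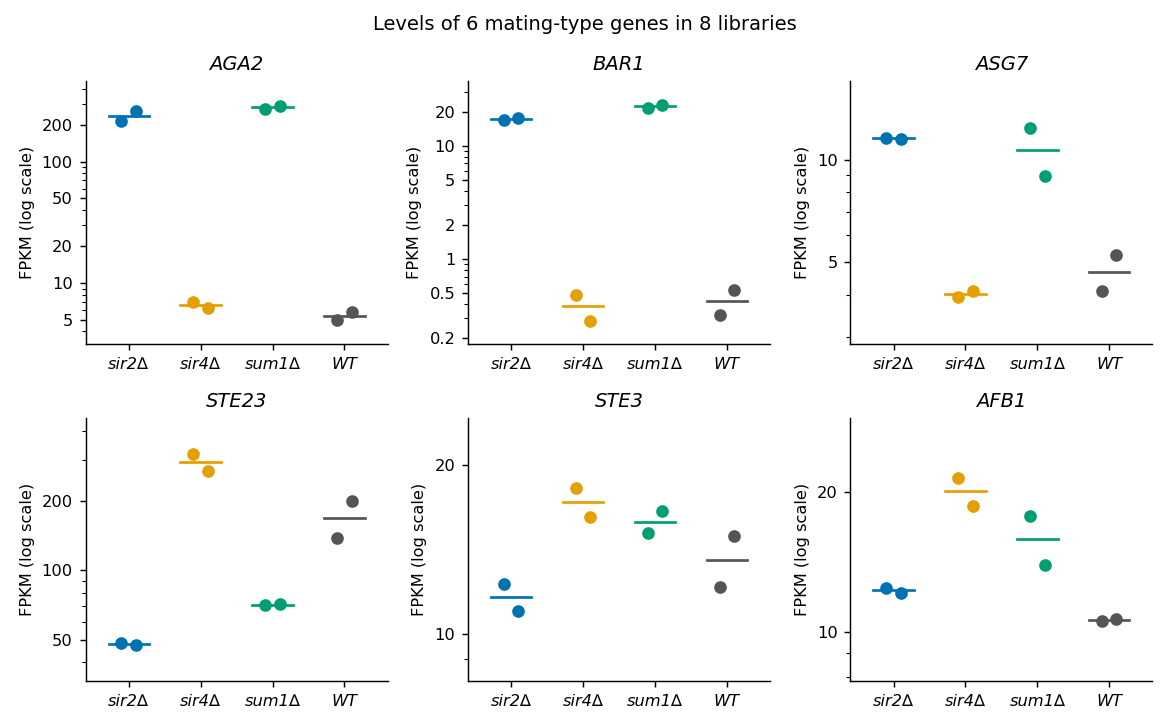
FPKM of the 6 genes on log axes in the libraries of sir2∆, sir4∆, sum1∆ and WT; each point is a library and each line the mean of 2 libraries. AGA2, BAR1 and ASG7 are high in sir2∆ and sum1∆, whereas STE23 is lowest in sir2∆, at 48.6 and 47.6 FPKM, and highest in sir4∆, at 320 and 269 FPKM.

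ASG7 is an a-specific gene of S. cerevisiae whose product acts together with the receptor Ste3 to shut off pheromone signalling after mating. ASG7 had 11.6 and 11.5 FPKM in sir2∆ cells, 3.93 and 4.09 FPKM in sir4∆, 12.4 and 8.92 FPKM in sum1∆, and 4.10 and 5.22 FPKM in WT. Its difference from WT had the same direction as those of AGA2 and BAR1 but was much smaller, with log2 fold changes of 1.16 for sir2∆ and 1.03 for sum1∆ (SE 0.16 each). The sum1∆ libraries spread over the sir2∆ values, and the higher sir4∆ library all but met the lower WT library. Both values dropped under 1 at a pseudocount of 5 (0.78 in sir2∆ and 0.69 in sum1∆) and with quantile normalization (0.48 in sir2∆ and 0.40 in sum1∆). The sum1∆ value also did so without WT replicate 1 (0.89) or sum1∆ replicate 1 (0.82).

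STE23 encodes a metalloprotease related to insulin-degrading enzyme that, with Axl1, trims the a-factor precursor. It behaved unlike AGA2, BAR1 and ASG7, being lower than WT in sir2∆ and sum1∆ and higher in sir4∆. STE23 had 48.6 and 47.6 FPKM in sir2∆ cells, 320 and 269 FPKM in sir4∆, 70.5 and 71.4 FPKM in sum1∆, and 137 and 199 FPKM in WT. No groups overlapped, and the order from high to low was sir4∆, WT, sum1∆ and sir2∆. The log2 fold changes against WT were -1.76 for sir2∆, 0.82 for sir4∆ and -1.21 for sum1∆ (SE 0.15 each). The WT libraries were further apart than those of any mutant relative to their mean. Without WT replicate 2 the sum1∆ value became -0.94 and the sir4∆ value 1.09, which puts the first inside and the second outside a fold threshold of 1 on the log2 scale. STE23 was also by far the most abundant of the 6 in WT, where its mean stood above 74.7% of all genes and those of the other 5 above 1.22% to 9.81%.

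The alpha-cell genes were detected in every library of these type a strains. In sir2∆ and sum1∆ they differed from WT by less than AGA2, BAR1, ASG7 and STE23 did. With quantile normalization, however, STE3 (-0.69) differed by more than ASG7 (0.48) in sir2∆. In sir4∆ AFB1 differed by 0.86 on the log2 scale, about as much as STE23 (0.82) and more than the others. STE3 encodes the receptor for a-factor, which in S. cerevisiae is made by alpha cells. STE3 had 12.3 and 10.98 FPKM in sir2∆ cells, 18.2 and 16.1 FPKM in sir4∆, 15.1 and 16.5 FPKM in sum1∆, and 12.1 and 14.9 FPKM in WT. The sir2∆ and WT libraries overlapped, as did those of sir4∆ and sum1∆, and the lower sum1∆ library was just above the higher WT library. The log2 fold changes against WT were -0.19 for sir2∆, 0.33 for sir4∆ and 0.22 for sum1∆ (SE 0.11 each), and the sum1∆ value turned to -0.11 with quantile normalization.

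AFB1 encodes the secreted barrier protein by which S. cerevisiae alpha cells remove a-factor. AFB1 had 12.4 and 12.1 FPKM in sir2∆ cells, 21.5 and 18.7 FPKM in sir4∆, 17.8 and 13.9 FPKM in sum1∆, and 10.5 and 10.6 FPKM in WT. No groups overlapped, in the order sir4∆, sum1∆, sir2∆ and WT from high to low. The log2 fold changes against WT were 0.20 for sir2∆, 0.86 for sir4∆ and 0.53 for sum1∆ (SE 0.12 each), of which the sir2∆ value turned to -0.27 with quantile normalization. AFB1 overlaps its neighbour REC114, a meiotic recombination gene, in the reference annotation. The library kit did not keep strand, so reads in the shared stretch cannot be assigned to either gene. REC114 stood at 3.45 and 4.58 FPKM in sir2∆, 3.35 and 2.91 FPKM in sir4∆, 5.83 and 6.47 FPKM in sum1∆, and 2.03 and 2.85 FPKM in WT. Its part in the AFB1 values was not tested.

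**Figure D2:**
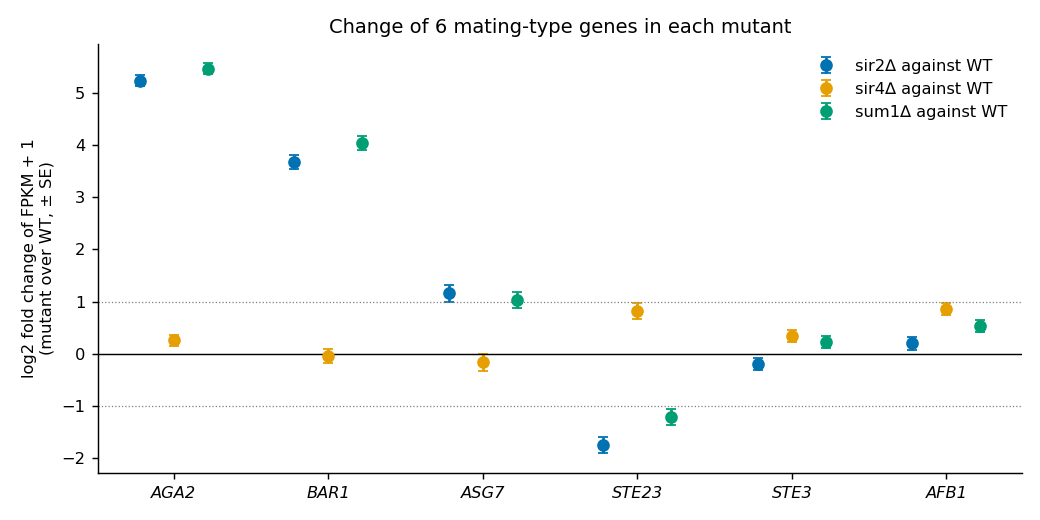
Log2 fold change of FPKM + 1 over WT (points, with SE as bars) for the 6 genes in sir2∆, sir4∆ and sum1∆; dotted lines mark the fold threshold of 1 on the log2 scale. AGA2 and BAR1 stand between 3.68 and 5.47 in sir2∆ and sum1∆ and between -0.04 and 0.26 in sir4∆, while STE23 lies below 0 in sir2∆ and sum1∆.

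A gene counted as called where limma's adjusted p was under 0.05 and the log2 fold change 1 or more in size. In sir2∆ against WT, 3 of the 6 genes were called higher and 1 lower, beside 4.90% and 0.717% of the 5022 genes tested (246 and 36 genes, or 194 and 90 with quantile normalization). In sum1∆ against WT the counts were again 3 higher and 1 lower, beside 7.73% and 2.87% of genes (388 and 144, or 313 and 199 with quantile normalization). With quantile normalization 3 of the 6 genes in all were called in sir2∆ and 3 in sum1∆, ASG7 no longer being among them. In sir4∆ against WT none of the 6 was called, beside 1.35% of genes in either direction. At any fold, 4 of the 6 had an unadjusted p below 0.05 in sir2∆, 4 in sir4∆ and 5 in sum1∆, with no share over all genes set beside them. Because the 6 genes were chosen on these levels, nothing is read from these counts. The 3 comparisons also share the WT libraries.

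Between the sir2∆ and sum1∆ mutants, which share no library, the 6 genes differed by less than the fold threshold. None was called, beside 2.41% of genes in either direction. At any fold, 4 of the 6 had an unadjusted p below 0.05. No share over all genes is set beside this count and the 6 were chosen on these levels, so nothing is read from it. The libraries of 5 of the 6 were lower in sir2∆ than in sum1∆ without overlap, and 44.0% of all genes tested did the same. The log2 difference of sir2∆ minus sum1∆ was -0.23 for AGA2, -0.36 for BAR1, -0.55 for STE23, -0.41 for STE3 and -0.34 for AFB1 (SE between 0.10 and 0.15). The median over all genes was -0.03. For ASG7 the libraries overlapped and the difference was 0.12 (SE 0.16), or -0.09 without sum1∆ replicate 2.

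Of the further markers fixed for the cell types, STE2, STE6 and SAG1 were not called in any mutant. STE2, the alpha-factor receptor of S. cerevisiae a cells, averaged 9.75 ± 0.447 FPKM in sir2∆, 9.93 ± 0.156 FPKM in sir4∆, 8.94 ± 1.19 FPKM in sum1∆ and 8.85 ± 0.706 FPKM in WT (SD, n = 2 each). STE6, the a-factor exporter, averaged 8.85 ± 0.129 FPKM in sir2∆, 9.07 ± 0.827 FPKM in sir4∆, 7.77 ± 0.121 FPKM in sum1∆ and 8.85 ± 1.23 FPKM in WT. Their log2 fold changes against WT lay between -0.16 and 0.15. SAG1, the alpha-cell agglutinin that Aga2 binds, averaged 13.3 ± 0.458 FPKM in sir2∆, 15.1 ± 1.78 FPKM in sir4∆, 15.02 ± 1.07 FPKM in sum1∆ and 13.7 ± 0.655 FPKM in WT. Over the 5 a-cell markers AGA2, BAR1, ASG7, STE2 and STE6, of which the first 3 were picked with these levels known, the summed level ran from 265 to 309 FPKM in sir2∆, 29.9 to 30.1 in sir4∆, 321 to 340 in sum1∆ and 26.7 to 29.6 in WT, and mostly restates AGA2 in sir2∆ and sum1∆. Over the 3 alpha-cell markers found of 4, STE3, AFB1 and SAG1, the sum ran from 36.7 to 37.7 FPKM in sir2∆, 51.2 to 53.5 in sir4∆, 44.7 to 48.7 in sum1∆ and 36.8 to 38.7 in WT. None of the markers found was at 0 in any library. In WT the alpha-cell sum was above the a-cell sum, but sums over different genes do not measure cell type. RNA of genes with alpha-cell roles in S. cerevisiae was thus not absent from these MATa strains.

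The wider mating pathway was read from lists of a-cell, a-factor maturation, alpha-cell, pheromone signalling, fusion and mating-type genes, which held 43 tested genes besides the 6. In sir2∆ 5 of the 43 were called higher and none lower, and in sum1∆ 5 were called higher and none lower. Of all genes tested, 4.90% were called higher in sir2∆ and 7.73% in sum1∆. Differences short of the fold threshold went in both directions, for example STE7 at -0.44 and KEX1 at 0.49 in sir2∆. The median log2 fold change of the 43 was 0.01 in both mutants, against -0.01 over all genes in each. In sir4∆ limma called none of the 43. At any fold, 18 of the 43 had an unadjusted p below 0.05 in sir2∆, 13 in sir4∆ and 25 in sum1∆. No share over all genes is set beside these 3 counts, so nothing is read from them. The genes called higher in sir2∆ and in sum1∆ belonged to pheromone signalling (3 of 19) and to cell and nuclear fusion (2 of 11). None of the 3 further a-cell genes, 7 a-factor maturation genes or 4 further alpha-cell genes was called in any mutant against WT.

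STE18 and GPA1, the gamma and alpha subunits of the pheromone receptor's G protein, and KAR4, a transcription factor of karyogamy genes, were the signalling genes called higher. The lists were chosen with earlier results of these data known, and the libraries are technical replicates of single strains. The adjusted p-values of list genes are therefore a description and not a test. STE18 stood at 80.03 and 70.7 FPKM in sir2∆, 0 and 2.49 FPKM in sir4∆, 63.02 and 52.8 FPKM in sum1∆, and 2.49 and 2.30 FPKM in WT. Its WT level rests on an estimated 4 and 2 reads, and its log2 fold change was 4.49 in sir2∆ (adjusted p = 0.000117) and 4.11 in sum1∆ (adjusted p = 0.000111), each SE 0.46. GPA1 rose by 1.94 in sir2∆ and by 2.24 in sum1∆ (SE 0.08 each). KAR4 rose by 1.65 in sir2∆ and by 3.003 in sum1∆ (SE 0.11 each), and was the 1 pathway gene called between these mutants, with sir2∆ minus sum1∆ at -1.35 (adjusted p = 6.82e-05). PRM1, which acts in plasma membrane fusion, rose by 2.47 in sir2∆ (adjusted p = 1.45e-06) and by 3.43 in sum1∆ (adjusted p = 1.28e-07). Its difference of sir2∆ minus sum1∆ was -0.97 and passed the fold threshold under 4 alternatives, among them quantile normalization (-1.13). KAR5, needed for nuclear fusion, rose by 1.06 in sir2∆ and by 1.35 in sum1∆; the sir2∆ value dropped under the threshold at a pseudocount of 5 (0.87) and under quantile normalization (0.79).

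AXL1, the other a-factor protease, was the a-cell list's member nearest to the fold threshold. It was picked after its values were known, so its adjusted p-values are likewise a description. AXL1 had 8.47 and 8.73 FPKM in sir2∆ cells, 5.26 and 4.98 FPKM in sir4∆, 9.05 and 8.35 FPKM in sum1∆, and 3.76 and 4.44 FPKM in WT. Both libraries of each mutant exceeded both of WT, and AXL1 just missed the fold threshold with 0.92 in sir2∆ (adjusted p = 0.000245) and 0.93 in sum1∆ (adjusted p = 0.000134), each SE 0.11. It passed that threshold in sir2∆ (1.01) and in sum1∆ (1.03) without WT replicate 2. Quantile normalization turned the sign in sir2∆ (-0.114) and left 0.19 in sum1∆, so its direction in sir2∆ depends on the scaling.

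**Figure D3:**
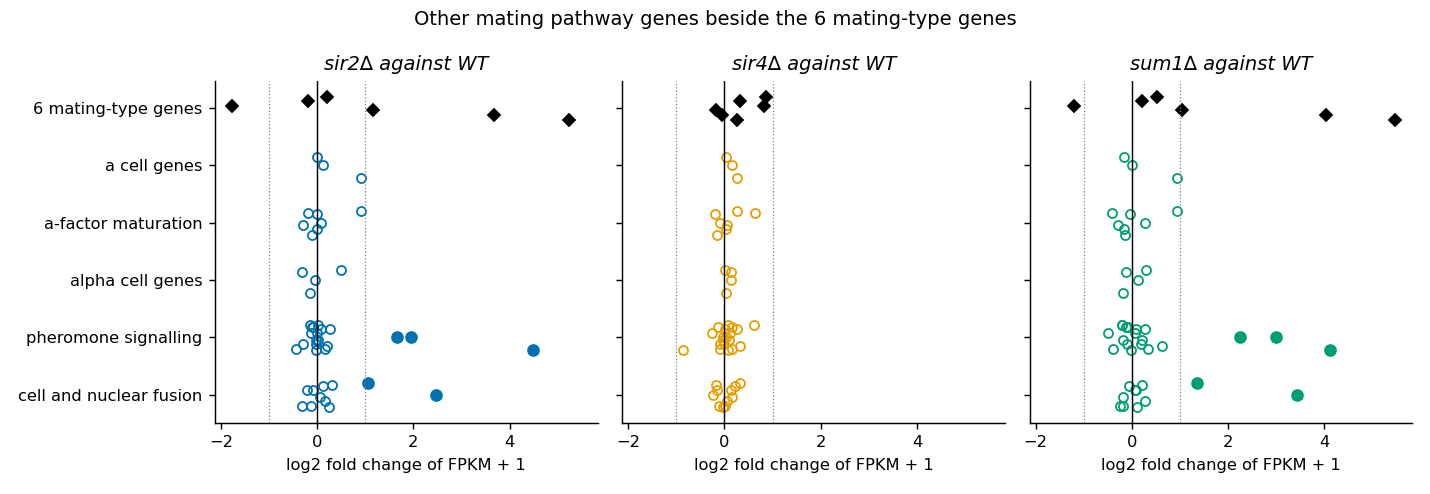
Log2 fold change of FPKM + 1 over WT in sir2∆, sir4∆ and sum1∆ for the 6 mating-type genes (black diamonds, shown as a description) and for other mating pathway genes by list (circles, filled where called). A gene in several lists is drawn in each, and the mating-type list, with ASH1 as its 1 tested gene, is not drawn; the 5 filled circles in sir2∆ and the 5 in sum1∆ are GPA1, STE18, KAR4, PRM1 and KAR5.

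The changes were set beside those of the adjacent genes, taking the 2 annotated neighbours on each side. The AGA2 and BAR1 differences stood alone at their size. Of 21 neighbours 1 was called higher in sir2∆ and 1 in sum1∆, none was called lower, and limma called none in sir4∆. These counts stand beside 4.90% of all genes called higher in sir2∆ and 7.73% in sum1∆, and the neighbours' share is not above either. At any fold, 14 of the 21 had an unadjusted p below 0.05 in sir2∆, 9 in sir4∆ and 18 in sum1∆. No share over all genes is set beside these last counts, so nothing is read from them. Neighbour values ran from -0.68 to 1.27 in sir2∆, from -0.76 to 0.37 in sir4∆ and from -0.71 to 1.06 in sum1∆.

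The adjusted p-values of neighbours, here and for REC114 below, come from limma on technical replicates of single strains. They are likewise a description and not a test. Next to AGA2, NAT2 was higher by 0.69 in sir2∆ (adjusted p = 3.79e-05) and 0.78 in sum1∆ (adjusted p = 9.27e-06), below the fold threshold. One gene further on, KLLA0E10935g, without a symbol, stood at 14.9 and 15.5 FPKM in sir2∆, 3.10 and 3.16 FPKM in sir4∆, 11.7 and 10.8 FPKM in sum1∆, and 6.40 and 5.11 FPKM in WT. It was called in sir2∆ (1.27, SE 0.11, adjusted p = 5.82e-05) and had 0.86 in sum1∆. That sir2∆ value dropped under the threshold at a pseudocount of 5 (0.91) and under quantile normalization (0.73), and the sum1∆ value passed it without WT replicate 1 (1.001). On the other side of AGA2, KLLA0E10869g and the ribosomal protein gene RPL30 were lower than WT in both mutants, with RPL30 at -0.68 in sir2∆ and -0.62 in sum1∆. Next to BAR1, RIB5, which makes riboflavin, was higher by 0.74 in sir2∆ and 0.71 in sum1∆.

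ASG7 and STE3 lie near each other on chromosome A, with TOH1 as the 1 annotated gene between them in the files. TOH1 stood at 166 and 168 FPKM in sir2∆, 193 and 168 FPKM in sir4∆, 164 and 175 FPKM in sum1∆, and 168 and 194 FPKM in WT. Beside the ASG7 values of 1.16 in sir2∆ and 1.03 in sum1∆, TOH1 stood at -0.11 in sir2∆ and -0.09 in sum1∆ (SE 0.09 each) and STE3 at -0.19 in sir2∆ and 0.22 in sum1∆. Of the neighbours of AFB1, REC114 was called in sum1∆ at 1.06 (SE 0.17, adjusted p = 0.000837). It lost that call without WT replicate 1 (0.891), without sum1∆ replicate 2 (0.999) and with a pseudocount of 5 (0.58), and the sign turned with quantile normalization (-0.11).

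**Figure D4:**
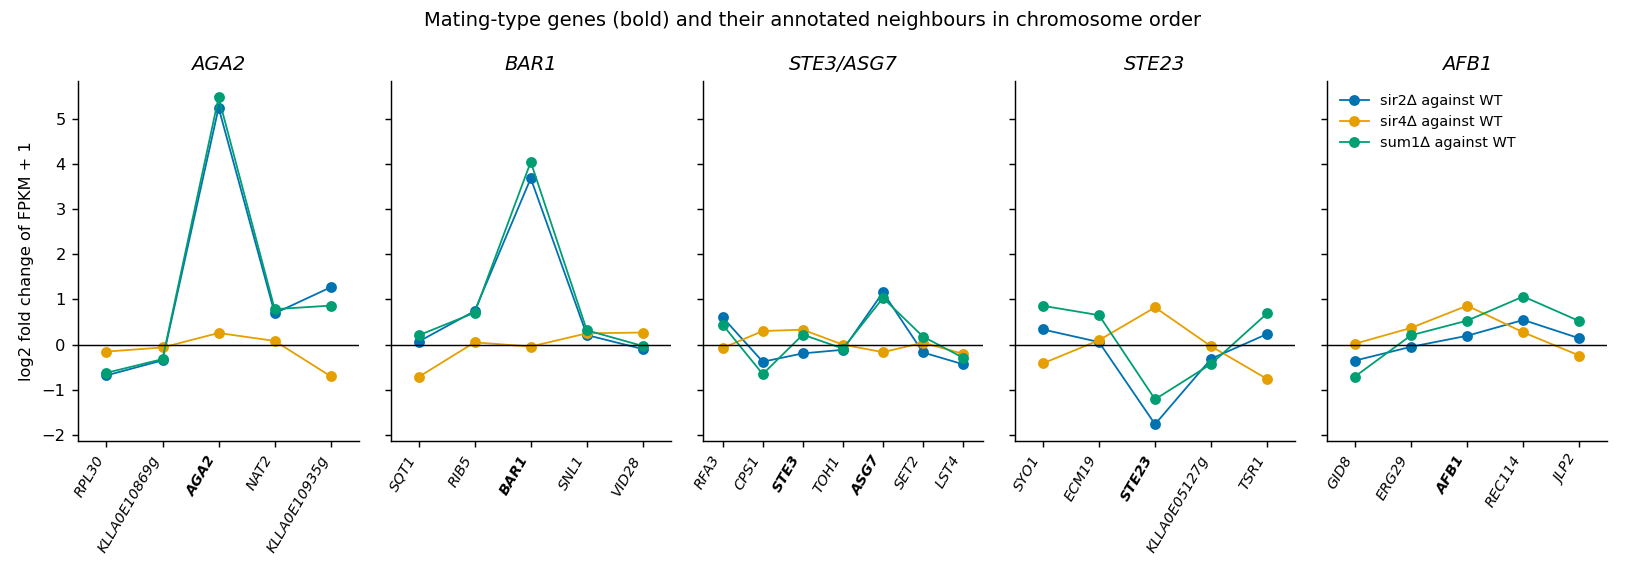
Log2 fold change of FPKM + 1 over WT in sir2∆, sir4∆ and sum1∆ for the 6 genes (bold) and 2 annotated neighbours on each side, in chromosome order and not to scale. AGA2 and BAR1 stand far above their neighbours in sir2∆ and sum1∆, and STE23 lies below its neighbours there.

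Genes with the most similar profiles were found by the Euclidean distance between values of log2(FPKM + 1), each minus the gene's mean, over the 8 libraries, among all 5022 genes tested. The distance between AGA2 and BAR1 was 1.94, between STE3 and AFB1 0.667, and between AGA2 and STE23 10.1. The 5 genes nearest to AGA2, at distances of 0.542 to 0.692, had no symbol. They were KLLA0A00132g, KLLA0D13288g, KLLA0F07271g, KLLA0E17293g and KLLA0B08261g, with mean levels of 44.5 to 72.6 FPKM in sir2∆, 0.117 to 1.45 FPKM in sir4∆, 46.5 to 86.8 FPKM in sum1∆ and 0.193 to 0.927 FPKM in WT.

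The 5 genes nearest to STE23 were KLLA0C01496g (0.345), SUR2 (0.365), ERG11 (0.494), KLLA0C11913g (0.511) and ERG1 (0.519). SUR2 is a sphingolipid hydroxylase, and ERG11 and ERG1 are enzymes of ergosterol synthesis. The genes nearest to AGA2 and to STE23 were ranked on these same libraries, so a shared pattern follows from their choice and is a description. SUR2 averaged 458 FPKM in sir2∆, 2523 FPKM in sir4∆, 543 FPKM in sum1∆ and 1379 FPKM in WT, the same order of groups as STE23. ERG11 averaged 394 FPKM in sir2∆, 2151 FPKM in sir4∆, 507 FPKM in sum1∆ and 1003 FPKM in WT. No other of the 6 genes was within 2.53 of STE23.

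**Figure D5:**
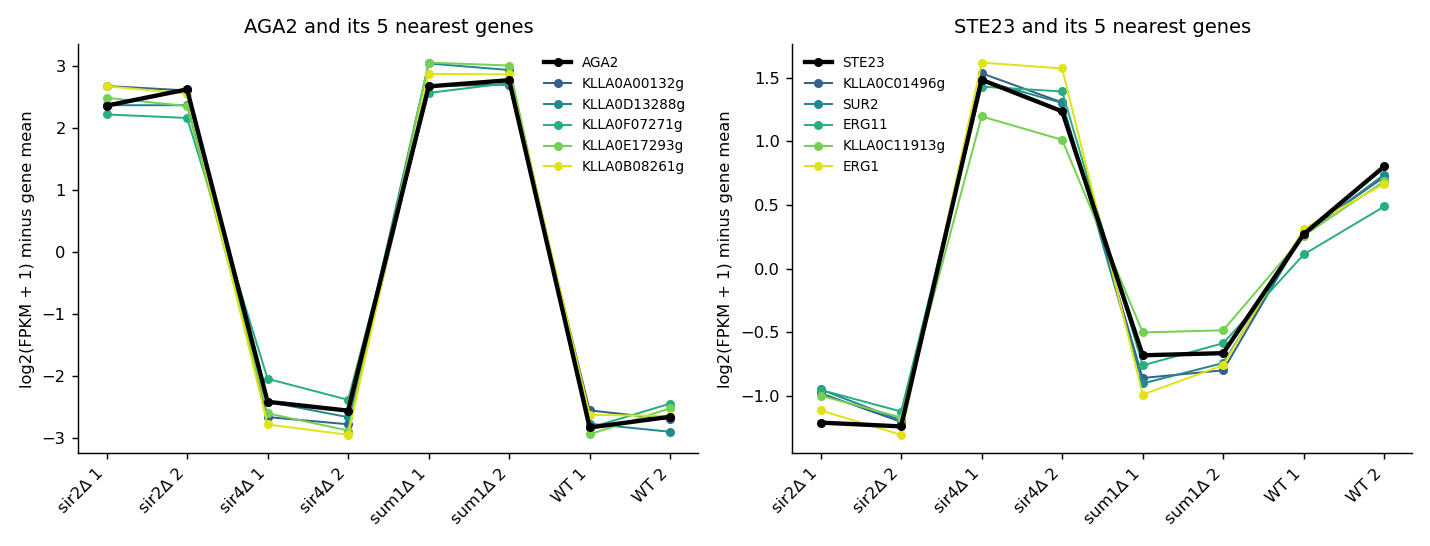
Values of log2(FPKM + 1) minus the gene's mean in each library for AGA2 and its 5 nearest genes, and for STE23 and its 5 nearest genes (the lines only join the values of a gene). The AGA2 group is high in sir2∆ and sum1∆ and low in sir4∆ and WT; the STE23 group is low in sir2∆ and sum1∆, with sir4∆ above WT.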

How the data were processed

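The authors deposited FPKM values for 5076 genes in each of 8 libraries, per the file headers. Per the labels' protocols, RNA was extracted with hot phenol, treated with DNase and made into unstranded libraries read as single 50-base reads. The submitters' processing notes list TopHat2 2.0.10 and Cuffnorm 2.2.1. Which build and annotation they used is not given in the sources used here. Symbols, coding lengths and gene order come from a RefSeq table (assembly ASM251v1) whose locus tags covered all 5076 identifiers. Its coordinates were used to find overlaps of neighbours and are not printed.

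The 5022 genes averaging 1 FPKM or more were fitted on the log2(FPKM + 1) scale using limma 3.58.1 (R 4.3.3; trended prior), with 1 spread for all 4 groups (residual degrees of freedom 4, prior 4.02) and Benjamini-Hochberg adjustment over all genes; the fit was tested on simulated data. Count models were not used, the values being FPKM. Reads were estimated from the steps between low values, assuming fragments of 200 ± 80 bases (SD); 95.7% to 100% of low genes came out whole within 0.1 of a read, but only 10 to 19 genes were low enough in sir2∆ replicate 2 and both sum1∆ libraries. Python 3.11.15 was used for the rest.

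The 6 genes and the pathway lists were chosen with earlier results of these data known. Other genes named are called pathway genes (at most 12), the 2 neighbours on each side, and the 5 nearest profiles of AGA2, BAR1, ASG7 and STE23. AXL1, STE7 and KEX1 fall outside this rule and were picked after their values were known. The label-check genes, the cell-type markers and ASH1 are named apart from it. Alternatives tried were pseudocounts of 0.1 and 5, other filters, quantile and median-ratio scaling, fits of 2 groups alone, a replicate block, and leaving out each library.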

Additional observations from a re-analysis of the deposited data

How the results depend on the processing

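Of 384 fold values of the 6 genes under the alternatives, 355 moved by less than the spread between replicates. Most of these had no room to move further. Filters, fits of 2 groups alone, the replicate block and leaving out a library outside the comparison cannot change a fold. Leaving out 1 of the 2 libraries of a compared group cannot shift it by more than that spread. The 29 that moved further all came from a pseudocount or quantile normalization, so the 355 say little about stability. None of the called differences changed sign, while 7 values of uncalled differences did. The call changed in 8 cases. These were the ASG7 values with a pseudocount of 5 (0.78 in sir2∆, 0.69 in sum1∆), with quantile normalization (0.48 in sir2∆, 0.40 in sum1∆), and in sum1∆ without WT replicate 1 (0.89) or sum1∆ replicate 1 (0.82), and the STE23 values without WT replicate 2. The REC114 value in sum1∆ reversed to -0.111 with quantile normalization. The cause was not tested. A pseudocount of 0.1 or 5 moved the sir2∆ value of BAR1 to 5.07 or 2.03 and its sum1∆ value to 5.45 or 2.34, a consequence of its WT level being under 1 FPKM. Leaving out each library gave 4 of the 6 genes called in sir2∆, 0 to 1 in sir4∆, 3 to 4 in sum1∆ and 0 between sir2∆ and sum1∆. For the 43 pathway genes it gave 5 to 6 higher and 0 lower in sir2∆ and in sum1∆, and 0 higher and 0 to 1 lower in sir4∆, the last being STE18 (-1.76 without sir4∆ replicate 2).

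Replicate numbers pair nothing in the labels, and deviations of same-numbered libraries correlated between -0.251 and 0.025 across pairs of groups. With the replicate block 4 of the 6 genes were called in sir2∆, 0 in sir4∆, 4 in sum1∆ and 0 between sir2∆ and sum1∆. Depth limits AGA2 and BAR1 in sir4∆ and WT, where 4 to 9 reads stand behind a value. Depth and group overlap in part, since both sir4∆ libraries are shallow and both sum1∆ libraries deep.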

Other observations

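The profiles nearest to BAR1 and ASG7 included genes of other processes. Those nearest to BAR1 were KLLA0F08371g (distance 0.470), KLLA0E19295g (0.501), CTS2 (0.536), KLLA0F15037g (0.603) and MOH1 (0.626). CTS2, a chitinase of the S. cerevisiae family of that name, averaged 68.8 FPKM in sir2∆, 4.03 FPKM in sir4∆, 110 FPKM in sum1∆ and 4.62 FPKM in WT. MOH1 averaged 301 FPKM in sir2∆, 15.2 FPKM in sir4∆, 362 FPKM in sum1∆ and 17.4 FPKM in WT.

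Those nearest to ASG7 were ECI1 (0.421), SPO75 (0.439), CSS2 (0.447), RTT109 (0.452) and TMT1 (0.453). SPO75, required for spore formation in S. cerevisiae, averaged 21.3 FPKM in sir2∆, 9.72 FPKM in sir4∆, 23.8 FPKM in sum1∆ and 10.1 FPKM in WT. RTT109, a histone acetyltransferase, averaged 51.9 FPKM in sir2∆, 22.6 FPKM in sir4∆, 57.1 FPKM in sum1∆ and 26.9 FPKM in WT. These genes were ranked on the same 8 libraries, and their likeness is a description.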
